A study of Mus musculus with 15 samples.

Results

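The 9 genes described here carry the beta-catenin branch of Wnt signalling as it is read in T cells: the transcription factors Tcf7 and Lef1, the co-activator beta-catenin (Ctnnb1), the scaffolds Axin1, Axin2 and Apc, the kinases Gsk3a and Gsk3b, and the ligand gene Wnt10b. They were taken by symbol from the 23284 entries of a gene expression table of mouse OT-I CD8 T cells, and all 9 had an entry. OT-I cells carry a transgenic T cell receptor for the ovalbumin peptide SIINFEKL. The table holds 15 RNA-seq libraries, 3 for each of 5 sorted populations. The cocktail was made of IL-7, IL-21, the glycolysis inhibitor 2-deoxyglucose and TWS119, an inhibitor of GSK3, and its cells were sorted at day 14 into CD44loCD62L+, CD44+CD62L+ and CD44+CD62L- populations. The IL-2 cells were kept for the same 14 days in IL-2, a T cell growth factor, and sorted as CD44+CD62L-. The OT-I cells of both cultures had been stimulated by bone marrow-derived dendritic cells carrying the peptide. Naive OT-I cells were sorted at day 0, without culture, as CD44loCD62L+ by the sample labels and as CD44-CD62L+ by the study's design text. The cocktail and the IL-2 culture differed in every listed component, so the part of TWS119 in any difference between them cannot be told apart from that of the other agents.

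In the canonical Wnt pathway, GSK3 phosphorylates beta-catenin inside a destruction complex built on Axin and Apc, and the phosphorylated protein is degraded. When a Wnt ligand binds its receptors, or when GSK3 is inhibited, beta-catenin accumulates, enters the nucleus and joins TCF and LEF proteins on DNA. In CD8 T cells TCF1, the product of Tcf7, and LEF1 are known for their part in thymic development, in the naive state and in the formation of memory cells. Much of this control acts on protein stability, and the libraries measured transcripts alone.

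Values are FPKM, a measure scaled for both transcript length and library size, with 1 value per gene, so transcript isoforms could not be told apart. FPKM sums ran from 669341 to 781949 per library, 10006 to 10473 genes reached 1 FPKM, and sequencing depth is unknown because whole reads could not be recovered. The 3 libraries of a population are technical replicates, so SDs and p-values measure the spread between libraries of 1 RNA preparation or culture and not between mice. The median coefficient of variation of the members was 1.49%, over the 41 of 45 member and population means at or above 1 FPKM. In the comparisons below, 48.3% to 91.8% of all genes tested had a limma adjusted p under 0.05. The share of all genes whose populations do not overlap was not computed. A lack of overlap is therefore given as a description and not as a trait of the members. All 8 CD8 T cell markers examined were at or above 1 FPKM in every population. Cd44, whose product was a sort marker, averaged 31.3 ± 0.591, 38.5 ± 0.866, 38.8 ± 0.354, 23.9 ± 0.773 and 7.24 ± 0.228 FPKM in cocktail CD44loCD62L+, cocktail CD44+CD62L+, cocktail CD44+CD62L-, IL-2 CD44+CD62L- and naive cells (SD, n = 3 each), so its transcript was higher in the CD44lo cells of the cocktail than in the CD44+ cells of IL-2.

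Markers of other cells were not even across the populations. The summed level of 19 dendritic cell and macrophage markers was 272 to 282, 269 to 281, 294 to 302, 176 to 181 and 333 to 336 FPKM over the libraries of cocktail CD44loCD62L+, cocktail CD44+CD62L+, cocktail CD44+CD62L-, IL-2 and naive cells. In the same order 9, 9, 9, 6 and 11 of these 19 genes averaged at least 1 FPKM, and Cd209a was listed at 0 in each cultured population. Cst3 and Ctss made up most of each sum and went in opposite directions against naive cells. Cst3 averaged 110, 141, 146, 129 and 64.2 FPKM in that order, and Ctss 112, 72.1, 91.1, 24.5 and 144 FPKM. Cd74 was lower than naive in each culture, at 10.1, 17.2, 12.5, 0.559 and 57.3 FPKM. Lyz2 was higher than naive in the cocktail and lower in IL-2, at 11.5, 14.8, 21.3, 0.427 and 8.22 FPKM. The 8 B cell markers summed to 2.77 to 3.07, 2.29 to 2.52, 2.14 to 2.42, 6.30 to 6.99 and 42.9 to 44.4 FPKM, with 1, 1, 1, 1 and 7 of 8 at or above 1 FPKM, and Ms4a1 and Pax5 were listed at 0 in each cultured population. The 7 erythroid, platelet and neutrophil markers summed to 1.45 to 1.66, 1.95 to 5.39, 3.92 to 4.79, 0.0894 to 0.273 and 24.4 to 28.4 FPKM, with 0, 2, 3, 0 and 2 of 7 at or above 1 FPKM. The 3 NK cell markers summed to at most 1.89 FPKM in any library. The 4 CD4 T cell markers summed to 7.74 to 17.4 FPKM, highest in IL-2 cells, but these genes went in opposite directions. Zbtb7b made up most of the IL-2 sum and averaged 0.234 FPKM in naive cells. Foxp3 was also higher, at 1.51 FPKM in IL-2 and 0.158 in naive cells. Cd40lg was lower, at 0.413 FPKM in IL-2 and 7.80 in naive cells, as was Cd4, at 0.0197 and 0.305 FPKM. The dendritic, B and erythroid sums moved with the comparisons of cultured with naive cells. The NK sum was above naive in IL-2 and cocktail CD44loCD62L+ libraries, and the CD4 T cell sum in IL-2 and CD44+ cocktail libraries. Between cocktail and IL-2 CD44+CD62L- cells the dendritic and erythroid sums were higher and the B, NK and CD4 T cell sums lower in the cocktail, without overlap. Within the cocktail, CD44+CD62L+ libraries had lower dendritic and CD4 T cell sums than CD44+CD62L- libraries. The CD44loCD62L+ libraries had higher B and NK sums and lower erythroid and CD4 T cell sums than CD44+CD62L+ libraries. Their part in the results below was not tested.

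Promoter windows are shown for the 4 members with the largest changes against naive cells, Tcf7, Lef1, Axin2 and Wnt10b, so that their start regions can be read beside the levels. The sequences are RefSeq's, build GRCm38.p6, from 250 bases before to 50 after a start site and on the strand of the gene. RefSeq windows were at hand for 7 of the 9 members, 12 windows in all, and Axin1 and Apc had none. Capitals mark matches, on either strand, to the core bound by TCF and LEF proteins (CTTTGA, reverse TCAAAG), the core bound by FOXO proteins (TGTTTAC, reverse GTAAACA) and the STAT element (TTCNNNGAA, its own reverse). Of 32851 mouse windows of the same length, 16.0% held the TCF and LEF core, 3.65% the FOXO core and 8.3% the STAT element.
Tcf7, second of 2 windows, chr11:52282546-52282845, minus strand: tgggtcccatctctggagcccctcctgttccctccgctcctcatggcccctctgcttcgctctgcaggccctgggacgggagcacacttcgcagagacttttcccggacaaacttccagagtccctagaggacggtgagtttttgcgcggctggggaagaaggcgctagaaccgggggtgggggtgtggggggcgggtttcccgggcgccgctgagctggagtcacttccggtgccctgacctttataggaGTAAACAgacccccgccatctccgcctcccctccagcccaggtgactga
Lef1, last of 4 windows, chr3:131156044-131156343, plus strand, at an internal start site: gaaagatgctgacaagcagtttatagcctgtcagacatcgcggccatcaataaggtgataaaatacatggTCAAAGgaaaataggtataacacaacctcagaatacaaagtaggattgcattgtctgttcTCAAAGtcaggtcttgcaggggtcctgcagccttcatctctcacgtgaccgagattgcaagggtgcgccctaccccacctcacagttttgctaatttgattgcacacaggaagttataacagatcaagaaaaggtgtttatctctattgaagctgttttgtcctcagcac
Axin2, chr11:108920099-108920398, plus strand: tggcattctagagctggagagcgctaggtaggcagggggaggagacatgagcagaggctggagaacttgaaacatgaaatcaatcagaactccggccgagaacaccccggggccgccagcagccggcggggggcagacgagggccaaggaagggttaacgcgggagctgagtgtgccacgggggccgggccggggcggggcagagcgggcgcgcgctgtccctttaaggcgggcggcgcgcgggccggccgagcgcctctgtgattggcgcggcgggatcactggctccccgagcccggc
Wnt10b, chr15:98778101-98778400, minus strand: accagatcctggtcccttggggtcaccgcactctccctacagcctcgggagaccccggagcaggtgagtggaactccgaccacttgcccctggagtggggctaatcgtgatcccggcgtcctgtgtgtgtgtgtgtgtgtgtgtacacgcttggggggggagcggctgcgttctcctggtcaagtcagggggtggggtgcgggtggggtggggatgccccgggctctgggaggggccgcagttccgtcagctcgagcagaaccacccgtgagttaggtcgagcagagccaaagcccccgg
The Tcf7 window held 1 FOXO core, at bases 1 to 7 from the start site, and the other Tcf7 window held none of the motifs. The Lef1 window held the TCF and LEF core at -180 to -175 and again at -120 to -115, while the 3 other Lef1 windows held no match. The windows of Axin2, Wnt10b and Ctnnb1 held none of these letters, and those of Gsk3a and Gsk3b held the TCF and LEF core once each, at -157 and -77. Matches are descriptions of letters, and since the table gives no start sites, the levels cannot be assigned to a window.

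Tcf7 (chromosome 11, 52252371 to 52283014, minus strand, GRCm38) encodes TCF1 and was the most abundant member in naive cells and in the 3 cocktail populations. It stood at 379, 374 and 375 FPKM in the cocktail CD44loCD62L+ libraries, at 249, 252 and 248 in cocktail CD44+CD62L+ and at 236, 237 and 240.0 in cocktail CD44+CD62L-. The IL-2 libraries had 2.43, 2.13 and 1.92 FPKM and the naive libraries 682, 681 and 677. All 5 populations were apart from each other, with the IL-2 libraries far below the rest and the naive libraries on top. As a share of the naive mean, cocktail CD44loCD62L+ cells held 55.3% of Tcf7, cocktail CD44+CD62L+ cells 36.7%, cocktail CD44+CD62L- cells 34.9% and IL-2 cells 0.318%. Among the 11242 genes tested, Tcf7 ranked 228, 333 and 365 from the highest in the cocktail populations in that order, 9467 in IL-2 cells and 130 in naive cells. In bulk RNA a population with fewer cells expressing a gene and one with less of its RNA per cell cannot be told apart.

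Lef1 (chromosome 3, 131110471 to 131224356, plus strand), a relative of Tcf7 with the same kind of DNA-binding domain, had the same order of populations on a narrower range. It was at 40.8, 41.8 and 42.7 FPKM in cocktail CD44loCD62L+, 25.9, 26.0 and 26.4 in cocktail CD44+CD62L+ and 23.8, 24.4 and 24.4 in cocktail CD44+CD62L- libraries. IL-2 libraries had 12.1, 11.5 and 12.3 FPKM and naive libraries 128, 129.9 and 129. No populations overlapped, and the IL-2 cells, with Tcf7 at 0.318% of the naive level, held 9.25% of the naive Lef1 level. The cocktail populations held 32.3%, 20.2% and 18.7% of it in CD44loCD62L+, CD44+CD62L+ and CD44+CD62L- cells, less than their share of Tcf7. The remaining family members, Tcf7l1 and Tcf7l2, did not exceed a mean of 0.909 and 0.149 FPKM in any population.

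Lef1 was the leading member of the TCF and LEF family in IL-2 cells, and Tcf7 in the other 4 populations. Of the summed FPKM of the 4 family genes, which is a per-length measure, Tcf7 made up 90.0%, 90.5% and 90.7% in cocktail CD44loCD62L+, CD44+CD62L+ and CD44+CD62L- cells, 15.3% in IL-2 cells and 83.9% in naive cells. Lef1 made up 9.98%, 9.47%, 9.24%, 84.4% and 15.9% in the same order. The family sum was 418, 276 and 262 FPKM in the cocktail populations, 14.2 in IL-2 cells and 810.1 in naive cells.

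The ratio of Tcf7 to Lef1 was 9.02 ± 0.258, 9.56 ± 0.174 and 9.82 ± 0.123 in cocktail CD44loCD62L+, CD44+CD62L+ and CD44+CD62L- cells, 0.181 ± 0.0231 in IL-2 cells and 5.27 ± 0.0467 in naive cells (SD, n = 3 each). It was thus higher in each cocktail population than in naive cells, with a log2 ratio larger by 0.78, 0.86 and 0.90, and lower in IL-2 cells than in naive cells, with a difference of -4.87 on the log2 scale. Between cocktail and IL-2 CD44+CD62L- cells the difference was 5.77. The libraries did not overlap in these comparisons, and the two-sided exact permutation p was 0.1 in each, the smallest that 3 against 3 libraries allow. The cocktail CD44+CD62L+ and CD44+CD62L- libraries did overlap, with an exact permutation p of 0.2.

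**Figure D1:**
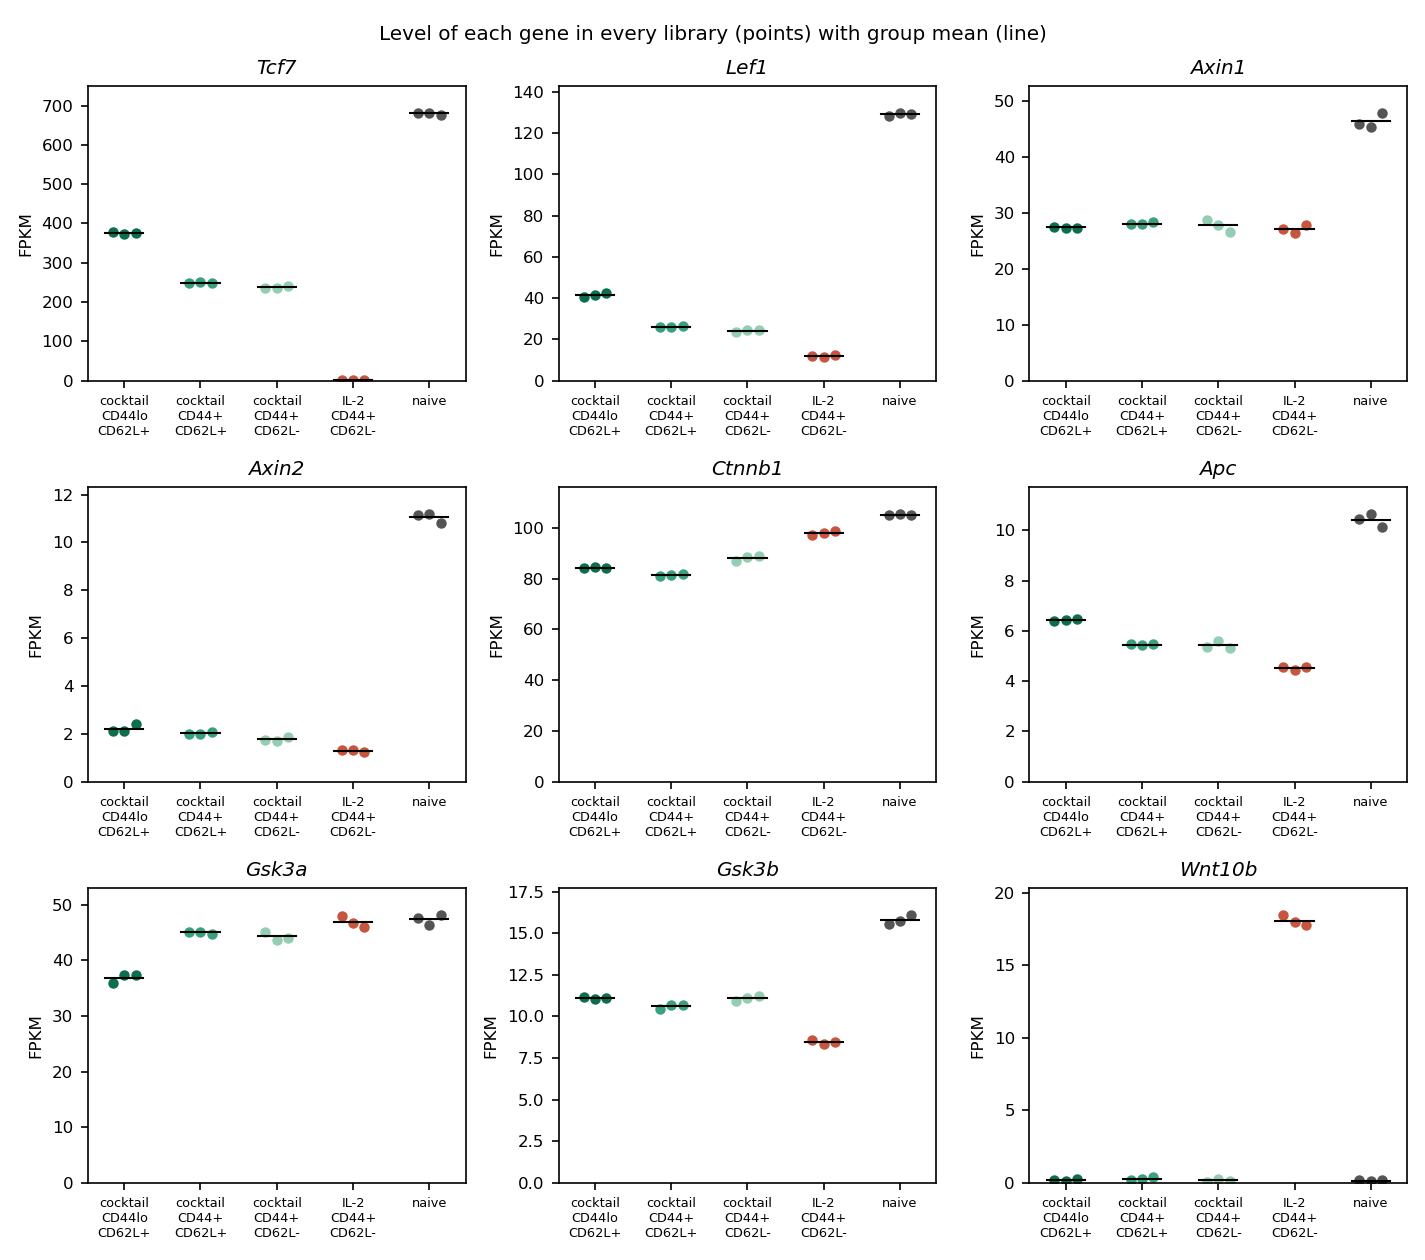
Level of each of the 9 genes in FPKM (vertical axes, linear, from 0) in each library (points) of the 5 populations, with the group mean as a line. Tcf7 and Lef1 step down across the cocktail populations and are lowest in IL-2 cells, Axin2 is high in naive cells only, and Wnt10b is near 18.1 FPKM in IL-2 cells and under 1 FPKM elsewhere.

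Ctnnb1 (chromosome 9, 120929216 to 120960507, plus strand) encodes beta-catenin, the co-activator that TCF and LEF proteins recruit. It varied little, with 84.0, 84.8 and 84.2 FPKM in cocktail CD44loCD62L+, 80.9, 81.6 and 81.8 in cocktail CD44+CD62L+ and 87.0, 88.4 and 88.8 in cocktail CD44+CD62L- libraries. IL-2 libraries had 97.0, 98.0 and 98.8 FPKM and naive libraries 105, 106 and 105. The populations did not overlap, but even the lowest, cocktail CD44+CD62L+, held 77.4% of the naive mean. Among cultured cells it was highest in IL-2 cells, where Tcf7 was lowest, at 93.1% of the naive mean.

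Axin2 (chromosome 11, 108920349 to 108950783, plus strand) is a scaffold of the destruction complex and is itself widely used as a transcriptional target of beta-catenin. It was at 2.13, 2.12 and 2.41 FPKM in cocktail CD44loCD62L+, 1.98, 1.99 and 2.07 in cocktail CD44+CD62L+ and 1.74, 1.69 and 1.86 in cocktail CD44+CD62L- libraries. IL-2 libraries had 1.32, 1.34 and 1.25 FPKM and naive libraries 11.1, 11.2 and 10.8. Every culture, with or without the GSK3 inhibitor, was far under naive cells, at 20.1%, 18.2% and 16.0% of the naive mean in cocktail CD44loCD62L+, CD44+CD62L+ and CD44+CD62L- cells and 11.8% in IL-2 cells. The 5 populations kept the order seen for Tcf7 and Lef1 and none overlapped, with cultured means between 1.30 and 2.22 FPKM.

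The other scaffolds moved less. Axin1 (chromosome 17, 26138688 to 26195811, plus strand), the constitutive Axin, averaged 27.5 ± 0.109, 28.1 ± 0.191 and 27.8 ± 1.12 FPKM in cocktail CD44loCD62L+, CD44+CD62L+ and CD44+CD62L- cells, 27.2 ± 0.730 in IL-2 cells and 46.5 ± 1.33 in naive cells (SD, n = 3 each). Its 4 cultured populations lay between 58.6% and 60.6% of the naive mean. The cocktail CD44+CD62L- libraries overlapped those of the other 3 cultured populations, while the cocktail CD44+CD62L+ libraries lay just above those of cocktail CD44loCD62L+ and of IL-2 cells. Apc (chromosome 18, 34220924 to 34322552, plus strand), a tumour suppressor that holds beta-catenin in the complex, averaged 6.45 ± 0.0459, 5.46 ± 0.0305 and 5.44 ± 0.161 FPKM in the cocktail populations in the same order, 4.51 ± 0.0649 in IL-2 cells and 10.4 ± 0.264 in naive cells. Apc was lowest in IL-2 cells, at 43.3% of the naive mean, and the cocktail CD44+CD62L+ and CD44+CD62L- libraries overlapped.

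The GSK3 genes, whose products TWS119 inhibits, were both expressed in every population. Gsk3a (chromosome 7, 25228258 to 25237851, minus strand) was at 36.0, 37.4 and 37.4 FPKM in cocktail CD44loCD62L+, 45.2, 45.2 and 44.8 in cocktail CD44+CD62L+ and 45.2, 43.7 and 44.0 in cocktail CD44+CD62L- libraries. IL-2 libraries had 48.0, 46.8 and 46.0 FPKM and naive libraries 47.7, 46.4 and 48.2. The cocktail CD44loCD62L+ libraries were lowest, at 77.8% of the naive mean. The CD44+ cocktail populations overlapped each other and lay below the IL-2 and naive libraries, which also overlapped.

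Gsk3b (chromosome 16, 38089001 to 38246084, plus strand) was at 11.1, 11.0 and 11.1 FPKM in cocktail CD44loCD62L+, 10.4, 10.7 and 10.7 in cocktail CD44+CD62L+ and 10.9, 11.1 and 11.2 in cocktail CD44+CD62L- libraries. IL-2 libraries had 8.61, 8.36 and 8.43 FPKM and naive libraries 15.6, 15.8 and 16.1. All cultured populations were under naive cells and IL-2 cells were lowest, at 53.6% of the naive mean, while the cocktail populations held 67.1% to 70.3%. The ratio of Gsk3a to Gsk3b was 3.33 ± 0.0845, 4.25 ± 0.0772 and 3.99 ± 0.120 in cocktail CD44loCD62L+, CD44+CD62L+ and CD44+CD62L- cells, 5.54 ± 0.0769 in IL-2 cells and 3.00 ± 0.0616 in naive cells (SD, n = 3 each). Its libraries did not overlap in any of the 7 comparisons, each with the smallest exact permutation p of 0.1, two-sided.

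**Figure D2:**
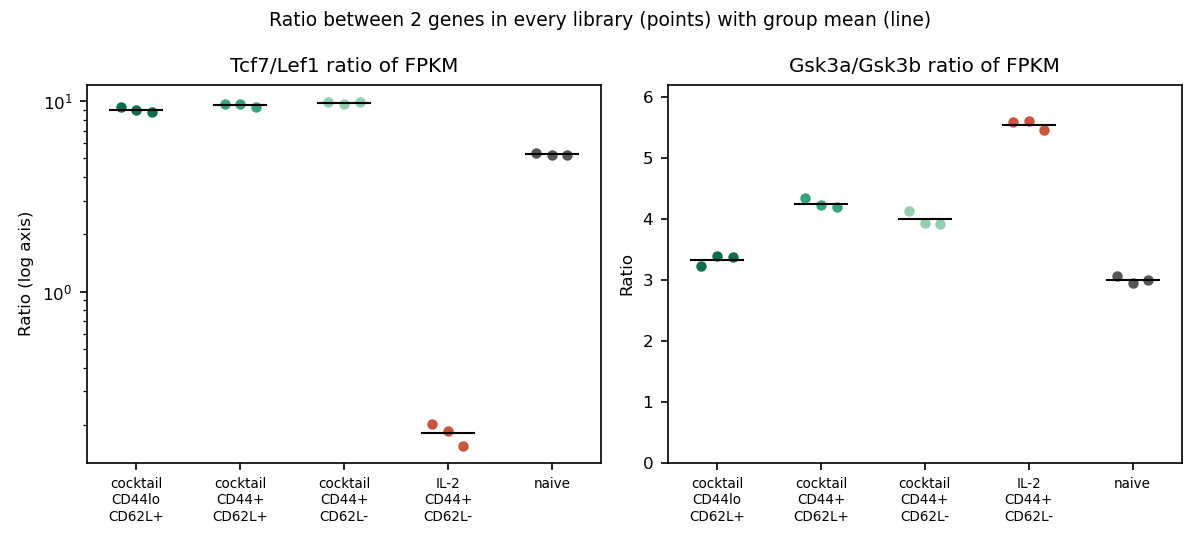
Ratio of Tcf7 to Lef1 (left, log axis) and of Gsk3a to Gsk3b (right, linear axis) in each library (points) of the 5 populations, with the group mean as a line. The Tcf7 to Lef1 ratio lies between 9.02 and 9.82 in the cocktail populations, at 0.181 in IL-2 cells and at 5.27 in naive cells, while the Gsk3a to Gsk3b ratio is highest in IL-2 cells at 5.54.

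Wnt10b (chromosome 15, 98770712 to 98778150, minus strand) encodes a secreted Wnt ligand. It was at 0.194, 0.150 and 0.234 FPKM in cocktail CD44loCD62L+, 0.172, 0.247 and 0.374 in cocktail CD44+CD62L+ and 0.0642, 0.270 and 0.144 in cocktail CD44+CD62L- libraries. IL-2 libraries had 18.5, 18.0 and 17.7 FPKM and naive libraries 0.172, 0.101 and 0.153. The gene was thus clearly detected in the IL-2 libraries alone, the population with least Tcf7, and the other 4 populations lay below 1 FPKM. Among these 4, only the cocktail CD44+CD62L+ and naive libraries did not overlap, and the nearest libraries of both stood at 0.172 FPKM when rounded. Of the 19 Wnt ligand genes in the table, Wnt10b in IL-2 cells and Wnt5b in naive cells were the only ones to average 1 FPKM or more in a population. Wnt5b averaged 0.0157 ± 0.0156 FPKM in IL-2 cells and 1.54 ± 0.142 in naive cells, and the highest mean of any ligand in a cocktail population was 0.264 FPKM, for Wnt10b in CD44+CD62L+ cells.

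**Figure D3:**
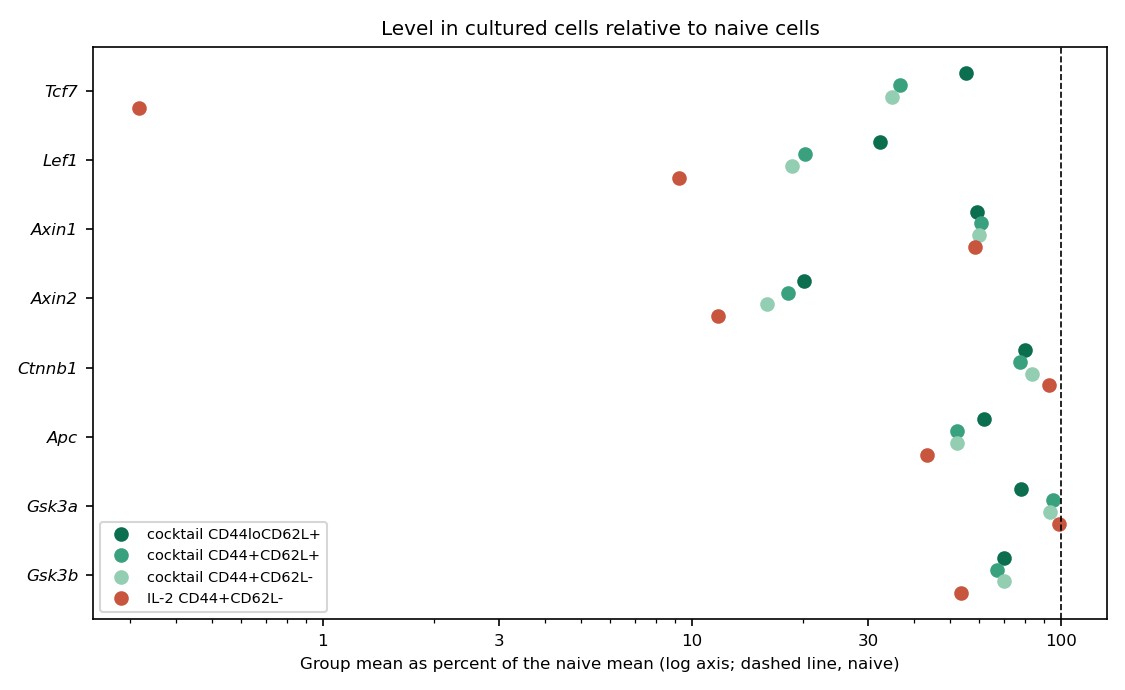
Mean level in each cultured population as a percentage of the naive mean (log axis) for 8 of the genes, with Wnt10b left out because its naive level was under 1 FPKM. Tcf7 spans 55.3% to 0.318% and Lef1 32.3% to 9.25%, while Axin1 stays between 58.6% and 60.6%.

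The cultures were compared within the CD44+CD62L- gate, which both share. Tcf7 was 109.9-fold higher in the cocktail cells and rose by a log2 fold change of 6.24 (SE 0.0394, limma adjusted p = 4.63e-19, Benjamini-Hochberg over all genes). Wnt10b fell, with -4.04 (SE 0.0664, limma adjusted p = 3.20e-15). Fold changes from the model are on the log2(FPKM + 1) scale, which understates them for low genes, and a change was called where the adjusted p was under 0.05 and the log2 value was 1 or more in size. By this rule 1 of 9 members rose and 1 fell, where 4.64% of all 11242 genes rose and 3.2% fell, 7.85% together. Lef1 was 2.02-fold higher in FPKM and had a log2 fold change of 0.96 (95% interval 0.91 to 1.01, limma adjusted p = 1.25e-13), just under the fold minimum.

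The other members differed little between cocktail and IL-2 CD44+CD62L- cells. Log2 fold changes were 0.36 for Gsk3b, 0.27 for Axin2, 0.22 for Apc, -0.15 for Ctnnb1 and -0.081 for Gsk3a. The limma adjusted p was under 0.05 for these 5, as for 84.3% of all genes tested. For Axin1 the interval of the difference was -0.030 to 0.090 on the log2 scale (limma adjusted p = 0.322). Under quantile normalization the small values of Ctnnb1 and Gsk3a changed sign, to 0.027 and 0.0013.

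Within the cocktail, CD44+CD62L+ cells were set against CD44+CD62L- cells, from which the gate on CD62L divides them. No member was called, where 0.0356% of all genes rose and 0.0801% fell, 0.116% together. At an unadjusted limma p under 0.05 there were 4 of 9, 2 higher and 2 lower, where 54.5% of all genes passed that threshold and 48.3% had an adjusted p under 0.05. Tcf7 differed by 0.071 on the log2 scale, with a 95% interval of -0.015 to 0.16 (limma adjusted p = 0.158). The values of Lef1, Axin2 and Ctnnb1 were 0.11, 0.12 and -0.11.

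The CD44loCD62L+ cells of the cocktail were then set against its CD44+CD62L+ cells, with which they share the CD62L gate. Again no member passed both thresholds, where 0.418% of all genes rose and 2.26% fell, 2.68% together. An unadjusted limma p under 0.05 was found for 7 of 9, 6 of them higher, and for 75.2% of all genes, while 73.4% had an adjusted p under 0.05. The largest values belonged to the transcription factors. Lef1 was 1.60-fold higher in CD44loCD62L+ cells, with a log2 fold change of 0.66 (SE 0.0226, limma adjusted p = 1.43e-11). Tcf7 was 1.51-fold higher, with 0.59 (SE 0.0394, limma adjusted p = 1.55e-08). Gsk3a was lower, with -0.28 (limma adjusted p = 4.21e-08), and the intervals of Axin1 and Wnt10b covered 0.

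**Figure D4:**
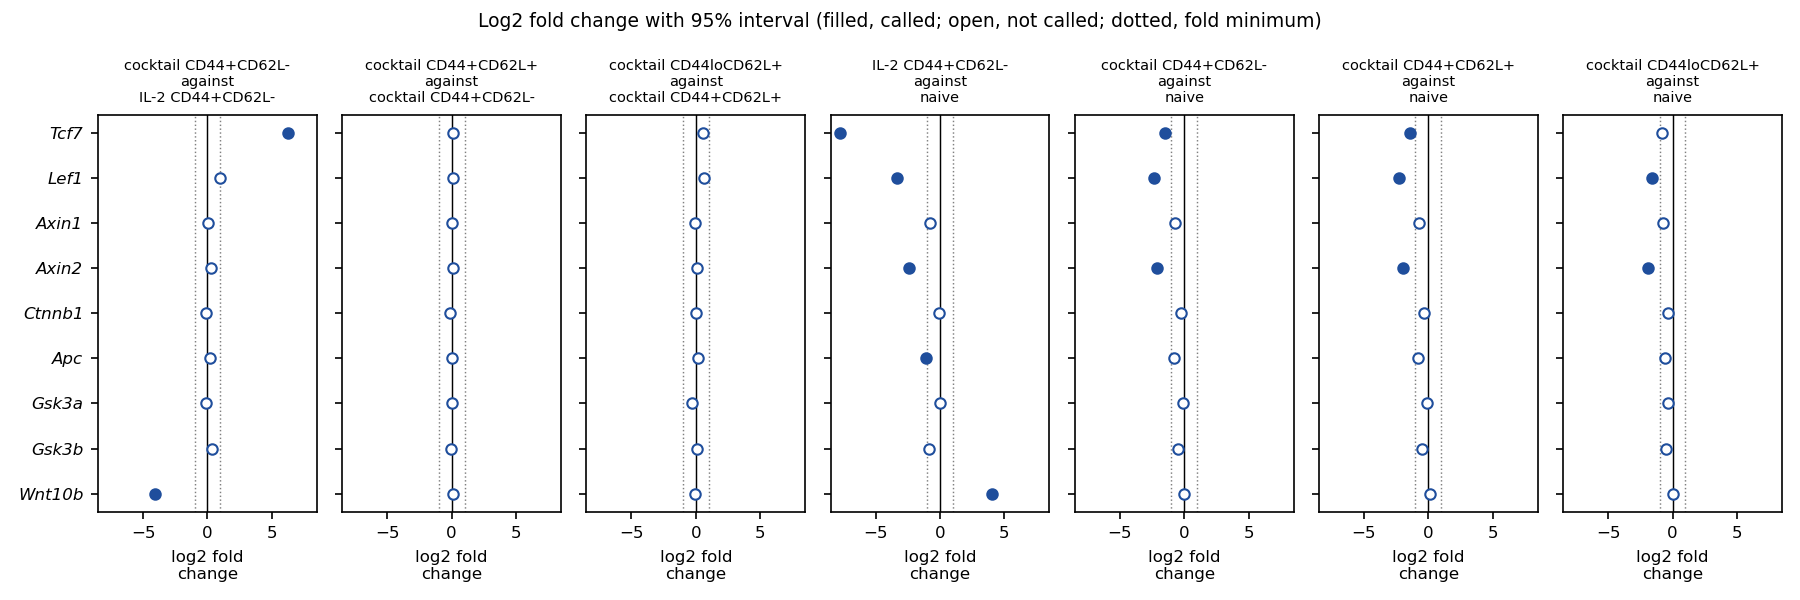
Log2 fold change of each gene in the 7 comparisons from the model on log2(FPKM + 1), with its 95% interval, filled where called and with dotted lines at the fold minimum of 1. Tcf7 and Wnt10b stand apart in the comparison of cocktail with IL-2 CD44+CD62L- cells, no gene passes within the cocktail, and Lef1 and Axin2 lie below the lower line in each comparison with naive cells.

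Against naive cells, more members were called in the IL-2 cells than in any cocktail population. Of 9 members 1 rose and 4 fell, where 17.6% of all genes rose and 13.7% fell, 31.3% together, and 91.8% had an adjusted p under 0.05. Tcf7 fell by 7.75 on the log2 scale (limma adjusted p = 4.09e-21), its FPKM being 315-fold lower in IL-2 than in naive cells. Lef1 fell by 3.33, Axin2 by 2.39 and Apc by 1.05, the last near the fold minimum (limma adjusted p = 6.43e-20, 4.10e-16 and 1.91e-14). Wnt10b rose by 4.06 (limma adjusted p = 5.89e-16). Gsk3b and Axin1 had values of -0.83 and -0.75, Ctnnb1 -0.10 and Gsk3a -0.016 (95% interval of the last -0.060 to 0.029). With a pseudocount of 5 FPKM the call of Apc was lost, at -0.70.

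The cocktail populations share their naive libraries in the comparisons that follow, so the values are given side by side and are not independent of one another. In cocktail CD44loCD62L+ cells 2 of 9 members fell and none rose by limma, 8 being lower and 0 higher at an unadjusted p under 0.05, where 11.6% of all genes rose and 6.11% fell, 17.7% together, with 88.9% at an unadjusted and 88.6% at an adjusted p under 0.05. In cocktail CD44+CD62L+ cells 3 fell and none rose, 8 and 0 at an unadjusted p under 0.05, where 14.4% of all genes rose and 8.44% fell, 22.8% together, with 90.9% at an unadjusted and 90.7% at an adjusted p under 0.05. In cocktail CD44+CD62L- cells 3 fell and none rose, again 8 and 0 at an unadjusted p under 0.05, where 13.9% rose and 8.59% fell, 22.5% together, with 90.9% at an unadjusted and 90.7% at an adjusted p under 0.05. Lef1 had log2 fold changes of -1.61, -2.26 and -2.37 in CD44loCD62L+, CD44+CD62L+ and CD44+CD62L- cells (limma adjusted p = 2.53e-16, 4.55e-18 and 2.89e-18). Axin2 had -1.90, -2.00 and -2.12, and these 2 genes were called in all 3 populations.

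Tcf7 had -0.85, -1.44 and -1.51 against naive cells in the same order, and was called in the CD44+ populations (limma adjusted p = 2.25e-13 and 1.36e-13). In CD44loCD62L+ cells it missed the fold minimum, and under quantile normalization it passed it, at -1.14. For the remaining members the log2 values were between -0.83 and -0.073 in the cocktail populations, Wnt10b apart. They ran from -0.83 to -0.62 for Apc, from -0.74 to -0.70 for Axin1 and from -0.53 to -0.47 for Gsk3b. Wnt10b differed by 0.062, 0.14 and 0.018, and under quantile normalization these 3 values changed sign. Quantile normalization also moved the median of all genes, to -0.11 in each of the CD44+ comparisons. Relative to that median Tcf7 was at -1.65 and -1.79 in CD44+CD62L+ and CD44+CD62L- cells, and Lef1 at -2.31 and -2.42.

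Other genes of the pathway were read from lists drawn up by role, leaving the 9 members out. Of the destruction complex and its regulators, 12 were tested. None was called between the cocktail and IL-2 cells of the CD44+CD62L- gate by limma, though 7 were higher and 4 lower at an unadjusted p under 0.05, a threshold that 84.9% of all genes passed. Their median log2 fold change was 0.090 beside -0.013 for all genes. Against naive cells 1 rose and 4 fell in IL-2 cells, where 17.6% of all genes rose and 13.7% fell, with a median of -0.42. In each cocktail population 1 rose and 2 fell, where 11.6% to 14.4% of all genes rose and 6.11% to 8.59% fell, with medians of -0.20, -0.12 and -0.24 in CD44loCD62L+, CD44+CD62L+ and CD44+CD62L- cells. The medians of all genes in these 4 comparisons lay between -0.016 and 0.016. The falls were led by Frat1 and Frat2, which bind GSK3 and keep it from Axin. Frat2 averaged 4.74 ± 0.0686, 2.78 ± 0.308 and 2.41 ± 0.215 FPKM in cocktail CD44loCD62L+, CD44+CD62L+ and CD44+CD62L- cells, 1.68 ± 0.0688 in IL-2 cells and 18.1 ± 0.204 in naive cells (SD, n = 3 each). Frat1 averaged 2.17 ± 0.142, 0.909 ± 0.175, 0.755 ± 0.0776, 1.32 ± 0.150 and 9.04 ± 0.250 FPKM in that order. The gene that rose was Ctnnbip1, an inhibitor of the binding of beta-catenin to TCF proteins, at 4.12 ± 0.0476, 4.77 ± 0.0506, 5.24 ± 0.159, 4.74 ± 0.183 and 0.461 ± 0.0734 FPKM.

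Of the family's co-activators and co-repressors, 14 were tested, and limma called none higher in any comparison with naive cells, though 0, 1 and 0 in cocktail CD44loCD62L+, CD44+CD62L+ and CD44+CD62L- cells and 3 in IL-2 cells were higher at an unadjusted p under 0.05, a threshold that 91.9% of all genes passed in IL-2 cells. In cocktail CD44loCD62L+ cells 5 of the 14 fell, where 6.11% of all genes fell. In cocktail CD44+CD62L+, cocktail CD44+CD62L- and IL-2 cells 6 fell in each, where 8.44%, 8.59% and 13.7% of all genes did. The medians were -0.67 in IL-2 cells and -0.54, -0.70 and -0.66 in cocktail CD44loCD62L+, CD44+CD62L+ and CD44+CD62L- cells, beside -0.016 to 0.016 for all genes. With a pseudocount of 5 FPKM the 5 falls in cocktail CD44loCD62L+ cells became 1, where 313 of 11242 genes fell. Bcl9l, which links beta-catenin to its co-activators, averaged 12.4 ± 0.0757, 9.53 ± 0.256 and 8.57 ± 0.208 FPKM in the cocktail populations, 7.59 ± 0.316 in IL-2 cells and 59.0 ± 0.189 in naive cells. Tle1, a Groucho-type co-repressor, averaged 0.300 ± 0.0682, 0.239 ± 0.0738, 0.326 ± 0.0908, 4.23 ± 0.137 and 5.05 ± 0.140 FPKM in that order. It fell against naive cells in the 3 cocktail populations. Between cocktail and IL-2 CD44+CD62L- cells it was lower and was the 1 gene of the 14 called. That count is near the share of all genes called there, 7.85%, with 3.2% called lower. At an unadjusted limma p under 0.05, 7 of the 14 were higher and 5 lower there, beside 84.9% of all genes in either direction. Its relative Tle3 was not called but was higher, at 42.3 ± 0.883 FPKM in cocktail and 20.8 ± 0.104 FPKM in IL-2 cells. With a pseudocount of 0.1 FPKM, median-ratio scaling or quantile normalization, 1 gene of the 14 was called higher.

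Among receptors, transducers and secretion factors 8 passed the filter, and 2 were called between the CD44+CD62L- populations, where 7.85% of all genes were called. Wls, which carries Wnt proteins to the cell surface, was higher at 23.6 ± 1.22 FPKM in cocktail and 5.95 ± 0.108 FPKM in IL-2 cells (log2 fold change 1.82, limma adjusted p = 1.88e-14). The co-receptor Lrp5 was lower, at 1.58 ± 0.0201 FPKM in cocktail and 5.74 ± 0.0946 FPKM in IL-2 cells, with -1.39 (limma adjusted p = 1.45e-13). The median of the 8 was 0.050 beside -0.013 for all genes. Against naive cells the co-receptor Lrp6 and the transducer Dvl1 fell in all 4 cultured populations, and the receptor-like Ryk rose in all 4, in which 6.11% to 13.7% of all genes fell and 11.6% to 17.6% rose. Ryk averaged 6.38 ± 0.146, 6.89 ± 0.103 and 7.78 ± 0.202 FPKM in the cocktail populations, 7.36 ± 0.193 in IL-2 cells and 0.0526 ± 0.0174 in naive cells. Of the 4 inhibitors tested, the ubiquitin ligase gene Znrf3 fell in all 4 cultured populations against naive cells, at 3.10 ± 0.0966, 2.30 ± 0.0597, 1.69 ± 0.166, 2.05 ± 0.0437 and 8.11 ± 0.171 FPKM. Its relative Rnf43 averaged 3.09 ± 0.126, 3.66 ± 0.125 and 4.35 ± 0.319 FPKM in the cocktail populations, 1.23 ± 0.0102 in IL-2 cells and 0.553 ± 0.0339 in naive cells.

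Listed target genes of beta-catenin were called in both directions. Of 7 tested beside the members, 2 rose and none fell between the cocktail and IL-2 cells of the CD44+CD62L- gate, with a median of 0.21 beside -0.013 for all genes, of which 4.64% rose and 3.2% fell. At an unadjusted limma p under 0.05 there were 4 higher and 3 lower, beside 84.9% of all genes in either direction. The genes that rose were Rnf43 and Jun, an AP-1 subunit at 47.8 ± 0.959 FPKM in cocktail and 15.2 ± 0.615 FPKM in IL-2 cells (log2 fold change 1.59, limma adjusted p = 2.59e-14). Against naive cells 1 rose and 2 fell in IL-2 cells, 3 rose and 2 fell in cocktail CD44loCD62L+ and in cocktail CD44+CD62L- cells, and 2 rose and 2 fell in cocktail CD44+CD62L+ cells. Of all genes 17.6% rose and 13.7% fell in IL-2 cells, 11.6% and 6.11% in cocktail CD44loCD62L+, 13.9% and 8.59% in cocktail CD44+CD62L- and 14.4% and 8.44% in cocktail CD44+CD62L+ cells. The medians were -0.24 in IL-2 cells and 0.44, 0.18 and 0.14 in cocktail CD44loCD62L+, CD44+CD62L+ and CD44+CD62L- cells, beside -0.016 to 0.016 for all genes. Cd44 was among the genes that rose and is also a sort marker. Sp5 and Notum, targets used widely as pathway readouts in other tissues, were listed at 0 in every library.

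**Figure D5:**
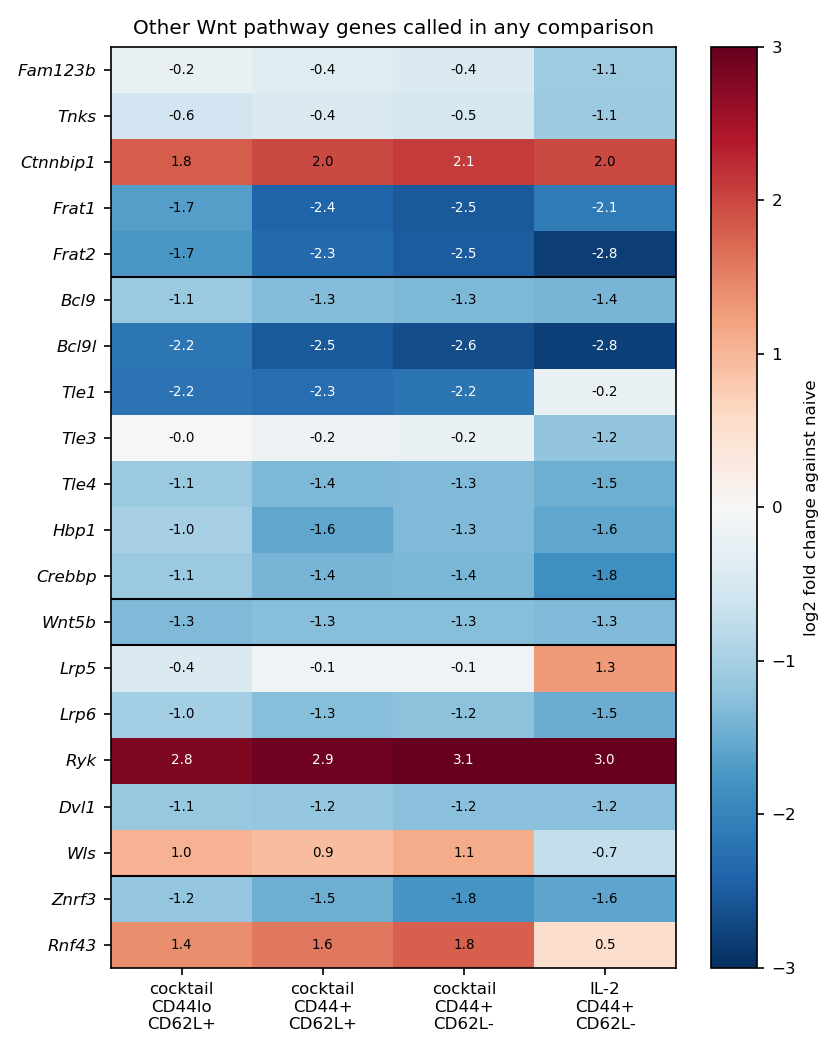
Log2 fold change against naive cells (colour) of the 20 other genes called in any comparison among the destruction complex, co-factors, ligands, receptors and inhibitors, which lines divide, in the 4 cultured populations. Bcl9l, Frat1 and Frat2 are lower than naive in all 4 columns and Ryk and Ctnnbip1 higher, and Wls, Lrp5 and Tle1 differ between the IL-2 and the cocktail columns.

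Transcription factors known to act with Tcf7 in naive and memory T cells were tested as a list of 11. Between the CD44+CD62L- cells of the cocktail and of IL-2, 5 rose and none fell, with a median of 0.73 beside -0.013 for all genes, of which 4.64% rose and 3.2% fell. At an unadjusted limma p under 0.05 there were 8 higher and 3 lower, beside 84.9% of all genes in either direction. Tox, a nuclear factor of long-lived and of exhausted T cells, was at 7.76 ± 0.275 FPKM in cocktail and 0.610 ± 0.0810 FPKM in IL-2 cells. Satb1, a chromatin organizer, was at 48.0 ± 0.137 and 9.06 ± 0.257 FPKM, and Bach2, a repressor of effector genes, at 5.79 ± 0.141 and 0.975 ± 0.153 FPKM, cocktail and IL-2 in that order. Their log2 fold changes were 2.44, 2.28 and 1.78 (limma adjusted p = 2.69e-15, 6.98e-19 and 1.48e-13).

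Within the cocktail, Klf2 was the 1 gene of this list that was called, in the comparison of CD44loCD62L+ with CD44+CD62L+ cells, where 0.418% of all genes rose. Klf2, a factor of quiescence and lymphoid homing, was at 52.7 ± 0.752 FPKM in CD44loCD62L+ cells and 17.3 ± 0.357 FPKM in CD44+CD62L+ cells, a log2 fold change of 1.55 (limma adjusted p = 5.76e-16). Against naive cells 8 of 11 fell in IL-2 cells and in each CD44+ cocktail population, while in cocktail CD44loCD62L+ cells 5 fell and 1, Myb, rose. Of all genes 13.7% fell in IL-2 cells, 8.44% in cocktail CD44+CD62L+ and 8.59% in cocktail CD44+CD62L- cells, and in cocktail CD44loCD62L+ cells 6.11% fell and 11.6% rose. The medians were -2.17 in IL-2 cells and -0.93, -1.26 and -1.41 in cocktail CD44loCD62L+, CD44+CD62L+ and CD44+CD62L- cells, beside -0.016 to 0.016 for all genes. Id3 was among the falls in all 4, at 15.5 ± 0.487, 9.48 ± 0.805 and 8.07 ± 0.265 FPKM in the cocktail populations, 2.25 ± 0.473 in IL-2 cells and 43.8 ± 0.421 in naive cells. Of 9 transcription factors listed for effector CD8 T cells, 6 rose against naive cells in IL-2 cells and in each CD44+ cocktail population. In cocktail CD44loCD62L+ cells 5 did. Of all genes 17.6% rose in IL-2 cells, 14.4% in cocktail CD44+CD62L+, 13.9% in cocktail CD44+CD62L- and 11.6% in cocktail CD44loCD62L+ cells. In IL-2 cells 1 of the 9, the repressor gene Zeb1, fell, with -1.20 (limma adjusted p = 2.20e-14). The medians of the 9 were 2.60 in IL-2 cells and 1.91, 2.03 and 2.00 in the cocktail populations in the order above, beside -0.016 to 0.016 for all genes. Of these 9, Prdm1, encoding Blimp-1, was the 1 gene called between cocktail and IL-2 CD44+CD62L- cells, lower at 1.29 ± 0.119 FPKM in cocktail and 9.85 ± 0.103 FPKM in IL-2 cells (log2 fold change -2.25, limma adjusted p = 3.00e-15). In that comparison 7.85% of all genes were called, and 3.2% were called lower. At an unadjusted limma p under 0.05, 4 of the 9 were higher and 5 lower there, beside 84.9% of all genes in either direction. The median of the 9 was -0.32 beside -0.013 for all genes. With a pseudocount of 0.1 FPKM 1 of the 9 was called higher. With a pseudocount of 5 FPKM the calls of the low genes Tle1, Ctnnbip1, Wnt5b, Lrp5, Lrp6, Znrf3, Rnf43 and Bach2 given above were lost, as were those of Zeb1 in IL-2 cells, of Frat1 and Myb in cocktail CD44loCD62L+ cells and of Dvl1 in the CD62L+ cocktail populations against naive cells. A filter of 5 FPKM left Wnt5b and Rnf43 untested, so their calls could not be made.

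The genes whose pattern over the 5 population means lay closest to that of Tcf7 were ranked among 943 genes with at least 10 FPKM in some population and a span of at least 2 log2 units. Likeness was the root mean square difference of the log2 means, each profile centred on its own mean. Closest to Tcf7 were Dapl1 (0.516), the chemokine receptor gene Ccr7 (0.751), Nsg2 (1.03), Art2b (1.23) and Itga4, an integrin subunit (1.32). Dapl1 averaged 101, 88.2, 48.5, 0.247 and 407 FPKM, and Ccr7 137, 76.2, 46.9, 2.08 and 301 FPKM, in cocktail CD44loCD62L+, CD44+CD62L+, CD44+CD62L-, IL-2 and naive cells. For Lef1, Zhx2 (0.0691), the kinase gene Txk (0.113), Socs3 (0.118), Tagap (0.121) and Atp10d (0.145) came first. The differences were not scaled for the span of a gene, which was wider for Tcf7 than for Lef1. The smaller values for Lef1 therefore do not show that genes followed it more closely than Tcf7. Lef1 itself ranked 101 for likeness to Tcf7, with a difference of 2.04, although both genes had the same order of populations. Axin2 ranked 97 for likeness to Lef1, with 0.410. These are descriptions over 5 means, in libraries that share their culture, and carry no test.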

How the data were processed

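RNA-seq of 15 libraries of sorted OT-I CD8 T cells was analysed, 3 technical replicates for each of 5 populations, grouped by their labels. The FPKM values are those the authors deposited, normalized per gene, and per the submitters' processing notes TopHat2 2.0.9, Cuffdiff 2.1.1 and the build mm10 were used. Their annotation, settings and use of strand were not given in the sources used here. No read counts were at hand: of 26773 ratios of low values between libraries 19.3% lay within 0.05 of a whole number, where 10% is expected by chance, so depth is unknown. Of all entries 6039 were listed at 0 in every library, among them Eef1a1, so a 0 can be a failed estimate.

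From the deposited values log2(FPKM + 1) was computed, without further scaling. The filter asked for a group mean of 1 FPKM or more in some population, and 11242 genes passed it, all 9 members among them. Differences came from limma 3.58.1 (R 4.3.3), fitted to the 15 libraries together with a term for population and eBayes's trend, for 7 comparisons. Calls needed a Benjamini-Hochberg adjusted p under 0.05 over all genes and a log2 fold change whose size was 1 or more. Ratios of 2 genes were compared by two-sided exact permutation tests, whose smallest p is 0.1. The fit was checked on simulated data.

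Members and gene lists were chosen with earlier results of these data known. All 9 members are named. From each list and comparison, up to 3 called genes with the largest rise and up to 3 with the largest fall were eligible for naming, given 5 FPKM in either population, or the 2 most abundant where none was called. Tle1, Tle3, Rnf43, Ctnnbip1 and Wnt5b were named outside this rule in some comparisons, and Sp5 and Notum in all, after their values were seen. Likeness was ranked without predicted genes, small RNA genes and antigen receptor segments. Positions are whole gene spans of the GENCODE annotation of GRCm38, the assembly mm10 names. Figures were drawn with matplotlib 3.10.9.

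Alternatives were pseudocounts of 0.1 and 5 FPKM, a filter of 5 FPKM and none, median-ratio scaling, quantile normalization, only the 6 libraries compared, no variance trend, no minimum fold change, the replicate number as a block and leaving out each library.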

Additional observations from a re-analysis of the deposited data

How the results depend on the processing

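The limits are those of technical replicates: the spread between libraries is small, the adjusted p-values are small with it, and the fold minimum decides most calls. Without a minimum fold change, members called by limma were 5 higher and 3 lower between cocktail and IL-2 CD44+CD62L- cells, 2 and 2 between cocktail CD44+CD62L+ and CD44+CD62L- cells, and 6 and 1 between cocktail CD44loCD62L+ and CD44+CD62L+ cells. Against naive cells they were then 1 higher and 7 lower in IL-2 cells and 0 higher and 8 lower in each cocktail population. With a pseudocount of 0.1 FPKM, 2 members were higher between cocktail and IL-2 CD44+CD62L- cells in place of 1, as Lef1 reached 1.01. With a pseudocount of 5 FPKM Apc lost its call in IL-2 against naive cells, at -0.70. Of 630 values of single members under settings other than leaving out a library, 584 kept direction and call. Quantile normalization turned 7 small values: Ctnnb1 to 0.027 and Gsk3a to 0.0013 between cocktail and IL-2 CD44+CD62L- cells, Apc to -0.011 between cocktail CD44+CD62L+ and CD44+CD62L- cells, Axin1 to 0.025 between cocktail CD44loCD62L+ and CD44+CD62L+ cells, and Wnt10b to -0.38, -0.31 and -0.42 in cocktail CD44loCD62L+, CD44+CD62L+ and CD44+CD62L- against naive cells. It also called Tcf7 in cocktail CD44loCD62L+ against naive cells, at -1.14, and brought the share of higher genes among all calls to 55.4% there, against 65.5% without it, and to 52.3% against 63.0% in cocktail CD44+CD62L+ against naive cells. The cause of these shifts was not tested. Leaving out each library in turn, the counts of members called were the same throughout, from 0 to 1 higher and from 0 to 4 lower by comparison. Of 378 single values 5 turned sign, in 3 genes near 0: Axin1 ran from -0.012 to 0.044 and Apc from -0.0092 to 0.025 between cocktail CD44+CD62L+ and CD44+CD62L- cells, and Wnt10b from -0.049 to 0.078 in cocktail CD44+CD62L- against naive cells. Of 79 calls of other listed genes, 27 were lost with a pseudocount of 5 FPKM. The filter of 5 FPKM left 4 of these 27 untested, 3 of Wnt5b in cocktail against naive cells and 1 of Rnf43 between cocktail and IL-2 CD44+CD62L- cells. None of the 79 turned sign where tested. Of 112 counts of listed genes, 73 moved by over 1.5 times without a minimum fold change and 44 under some other setting. These include 1 co-factor gene called higher in place of 0 between cocktail and IL-2 CD44+CD62L- cells without the cocktail library of replicate 2. As a block, the replicate number changed 0 of 63 member calls, 1 higher and 4 lower in IL-2 against naive cells with it too. Libraries sharing a number did not deviate together at the median (correlation -0.013 over 30 pairs, from -0.25 to 0.19). Pairs of different numbers had a median of 0.018 over 60 pairs, from -0.25 to 0.27. These values give no sign that the numbers pair the samples. A pairing weaker than the spread between libraries could not be seen this way.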
